A study of Homo sapiens with 12 samples.

Results

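The wild-type (WT) DICER rescue was the reference group of a small-RNA series in HCT116, a human colorectal carcinoma line, and consisted of 2 of the 12 libraries. The 2 libraries were taken by their label, a rescue with wild-type DICER, and all entries of human miRNAs in them were described: 1346 were listed and 953 had at least 1 count in either library. The other 10 libraries carried mutant rescues and were not used. Total RNA was sequenced by AQ-seq, a small-RNA method built to lower the bias of adapter ligation. Both libraries are of 1 line and no drug treatment is labelled. The state of the line's own DICER gene, the way the rescue was made and whether the line was 1 clone are not stated in the labels. They also do not say whether the 2 libraries came from separate cultures, so the spread between them may be technical.

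DICER is the RNase III enzyme that cuts the loop off a precursor hairpin and releases a short duplex. The strand from the 5′ side of the hairpin is called 5p and the strand from the 3′ side 3p. An Argonaute protein keeps one strand of the duplex as the mature miRNA, the other is usually lost, and the retained strand finds its targets mainly through the bases near its 5′ end, the seed. miRNAs with the same seed are grouped as a family because they can pair with the same sites. Hairpins that lie close together on a chromosome are often cut from one primary transcript.

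The mature strands below led the 10 seed families with the largest share of counts, with up to 2 members of each, and are shown because the families are defined by these letters. They were matched by name to RefSeq on GRCh38.p14, which held a sequence for 1179 of the 1346 entries and for 92.7% ± 1.33 of miRNA counts. Capitals mark the seed, bases 2 to 8 from the 5′ end.
miR-21-5p: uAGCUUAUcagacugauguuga
miR-590-5p: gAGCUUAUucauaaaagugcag
miR-222-3p: aGCUACAUcuggcuacugggu
miR-221-3p: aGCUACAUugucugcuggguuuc
miR-31-5p: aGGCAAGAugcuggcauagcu
let-7a-5p: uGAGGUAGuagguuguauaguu
let-7i-5p: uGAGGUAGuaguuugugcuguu
miR-16-5p: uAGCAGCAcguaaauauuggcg
miR-15b-5p: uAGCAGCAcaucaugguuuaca
miR-29a-3p: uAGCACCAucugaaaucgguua
miR-29b-3p: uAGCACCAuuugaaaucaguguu
miR-27a-3p: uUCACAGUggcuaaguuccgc
miR-27b-3p: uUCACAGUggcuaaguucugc
miR-30c-5p: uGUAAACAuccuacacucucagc
miR-30e-5p: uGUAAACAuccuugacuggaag
miR-100-5p: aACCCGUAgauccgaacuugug
miR-99b-5p: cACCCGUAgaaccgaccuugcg
miR-23a-3p: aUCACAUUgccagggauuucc
miR-23b-3p: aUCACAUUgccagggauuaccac

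The next strands are the opposite arms of single hairpins and are shown because the arm counts turn on them. In miR-222 and miR-27a the 3p strand led, in miR-30e and miR-10a the 5p strand led, miR-29a kept a large share of both, and in miR-330 and miR-324 the libraries disagreed. The seed is again in capitals, and the leading strands of miR-222, miR-27a, miR-29a and miR-30e are given above.
miR-222-5p: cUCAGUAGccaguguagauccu
miR-27a-5p: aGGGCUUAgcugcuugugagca
miR-29a-5p: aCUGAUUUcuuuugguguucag
miR-30e-3p: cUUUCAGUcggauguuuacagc
miR-10a-5p: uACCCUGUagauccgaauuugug
miR-10a-3p: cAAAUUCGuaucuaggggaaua
miR-330-5p: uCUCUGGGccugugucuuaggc
miR-330-3p: gCAAAGCAcacggccugcagaga
miR-324-5p: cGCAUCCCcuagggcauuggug
miR-324-3p: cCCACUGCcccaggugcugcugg

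Replicate 1 held 250755 miRNA counts and replicate 2 held 247226. Spike-in sequences took a further 3.99% ± 0.395 of all counts (SD, n = 2; every ± below is an SD over these 2 libraries) and were kept out of the miRNA totals. At this depth 3 counts, the limit that a count of 0 allows, correspond to 12.0 CPM (counts scaled to a common library size) in replicate 1 and 12.1 CPM in replicate 2. The libraries were not copies of each other: the chi-square of their counts was 25.6 per degree of freedom over 429 entries with a mean of at least 5 counts. Intervals and limits given here cover the counting error of reads within a library only. Amplified reads with no molecular identifier may repeat a molecule, so for molecules the intervals may be too narrow. Replicate 1 detected 800 entries, replicate 2 detected 791, and 638 were detected in both. Of the 315 entries seen in 1 library only, 203 had a single count and the highest had 8. A further 393 entries were at 0 in both libraries.

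A small number of strands made up most of the counts. In both libraries 3 entries held 50% of miRNA counts. To reach 90% took 66 entries in replicate 1 and 64 in replicate 2, and 99% took 268 and 264. The 10 most abundant entries took 62.2% of replicate 1 and 62.8% of replicate 2. Over the means, 12 entries had 10000 CPM or more and held 64.6% of counts, 76 had 1000 to 10000 CPM and held 28.4%, 172 had 100 to 1000 CPM and held 5.88%, and 254 had 10 to 100 CPM and held 0.915%. The median of all listed entries was 4.02 CPM.

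miR-21-5p, an miRNA raised in many tumours that represses PDCD4, stood alone at the top. It had 94524 counts in replicate 1, 37.7% of that library (exact Clopper-Pearson 95% interval 37.5 to 37.9%), and 106807 in replicate 2, 43.2% (43.0 to 43.4%). Its mean share was 40.4% ± 3.89, and it exceeded the next entry 4.58 times in replicate 1 and 6.55 times in replicate 2. Neither library's interval reached the other's, so the gap between libraries was wider than counting error.

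The entries that followed were miR-222-3p and miR-221-3p, which repress the cell-cycle inhibitor CDKN1B, and miR-31-5p, an miRNA studied as a marker of colorectal tumours. miR-222-3p had 20618 and 16300 counts in replicates 1 and 2 (7.41% ± 1.15). miR-31-5p had 12461 and 6828 (3.87% ± 1.56). miR-221-3p had 7754 and 6204 (2.80% ± 0.412). These 3 held places 2 to 4 in each library, all 3 were lower in replicate 2, and no other entry had a mean of 2% or more.

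Ranks 5 to 14 lay between 0.964% and 1.41% of counts and changed places between the libraries. miR-27a-3p, miR-24-3p and miR-23a-3p come from clusters of the same name and were each lower in replicate 2: miR-27a-3p had 4336 and 2679 counts, 1.41% ± 0.456. miR-24-3p had 3527 and 2168 counts, and miR-23a-3p had 2800 and 2170. miR-100-5p, a repressor of MTOR, had 3804 and 3066 counts. miR-16-5p, which represses BCL2 and cyclins, had 3563 and 3054. The passenger strand of the top hairpin, miR-21-3p, was itself in this range at 2074 and 4636 counts, and held place 14 in replicate 1 and place 5 in replicate 2. miR-29a-3p and miR-29b-3p, which repress collagens and DNA methyltransferases, split in their agreement: miR-29a-3p had 2647 and 2771 counts, while miR-29b-3p had 1950 and 3415. miR-4521, a strand with no arm in its name (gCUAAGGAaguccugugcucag), had 3249 and 3485 counts, and miR-10a-5p, encoded in the HOXB gene cluster, had 2886 and 1920.

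The last 6 of the top 20 lay below 0.9%. let-7a-5p, a repressor of RAS and HMGA2, had 1917 and 2377 counts and miR-30c-5p had 1710 and 2015. miR-1260b, which overlaps tRNA sequence, had 2479 and 1710. A further 3 strands differed little: miR-92a-3p at 1895 and 1685, miR-26a-5p at 1827 and 1720, and miR-31-3p at 1820 and 1702. Those 3 were the only entries of the top 20 not called different between the libraries (exact binomial test of an entry's counts between the 2 libraries given their TMM-scaled sizes, Benjamini-Hochberg adjusted p = 0.337, 0.856 and 0.941). This test compares 2 libraries and covers counting error only, and 30.3% of the 429 tested entries were called by it.

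**Figure D1:**
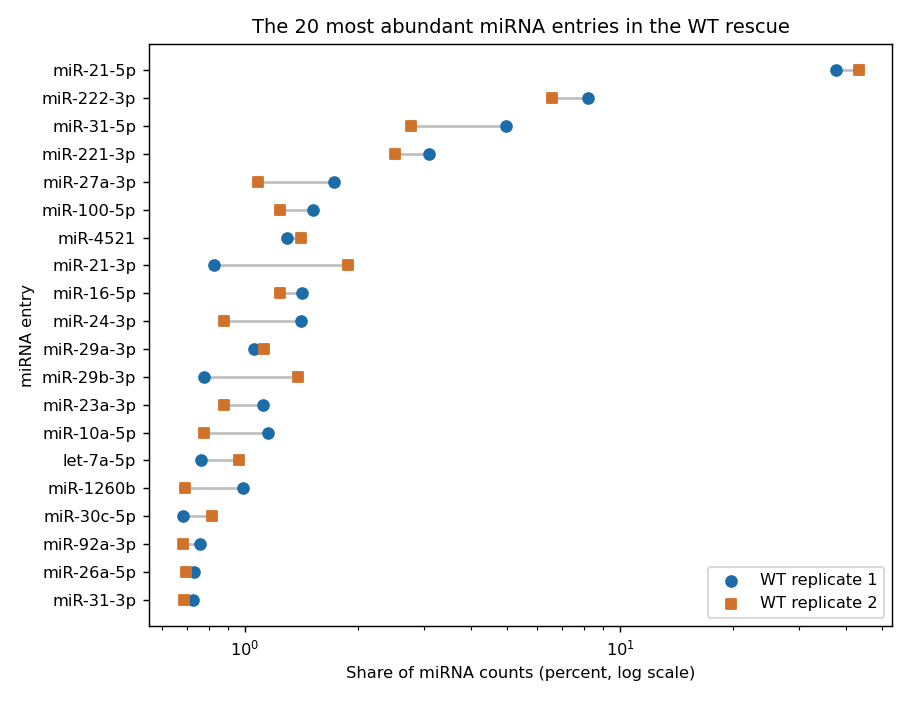
Share of miRNA counts (percent, log axis) of the 20 most abundant entries, with a circle for WT replicate 1 and a square for WT replicate 2 joined by a grey line. miR-21-5p lies at 37.7% and 43.2%, far to the right of miR-222-3p at 8.22% and 6.59%, and the longest line is that of miR-21-3p.

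Grouping by seed left miR-21-5p, miR-222-3p and miR-31-5p at the head and joined smaller strands behind them. The 836 detected entries with a sequence fell into 713 seed families, and 629 of these had a single detected entry. Of the counts with a sequence, 90% lay in 30 families, against 54 entries when strands were counted singly. The 10 largest families together took 68.7% ± 0.466 of all miRNA counts. Strands with no sequence in the reference are in no family, among them miR-21-3p (1.35% of counts) and miR-31-3p (0.707%). Shares and order of the families thus hold for strands with a sequence only.

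Families differed in how evenly their members shared the counts. The seed AGCUUAU took 40.6% ± 3.91, and 99.6% of it was miR-21-5p: miR-590-5p, the other member, had 341 and 391 counts, 277 and 273 times fewer. The seed GCUACAU took 10.2% ± 1.56, of which miR-222-3p gave 72.6%. Its lead over miR-221-3p was 2.66 times in replicate 1 and 2.63 times in replicate 2, so the ratio of the pair was nearly the same in both libraries while both shares were lower in replicate 2. miR-31-5p was the only entry of its seed among the listed entries with a sequence.

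The let-7 family was spread over more members. Its seed took 2.92% ± 0.400, 9 of 10 listed entries with a sequence were detected, and the leader, let-7a-5p, gave 29.5% of it. let-7i-5p had 1541 and 1761 counts and let-7f-5p had 895 and 1095. let-7b-5p (789 and 885) and let-7g-5p (687 and 621) came next. let-7d-5p had 371 and 642, let-7e-5p 233 and 290 and miR-98-5p 167 and 246. let-7c-5p was nearly absent at 22 and 12 counts, 87.1 and 198 times below let-7a-5p. let-7 strands differ by few bases, and the sources used here do not say how reads that fit several entries were counted, so the split within the family is uncertain.

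Of the middle-sized families, miR-15/16 (2.22% ± 0.346), which represses BCL2 and cyclins, was led by miR-16-5p with miR-15b-5p at 1724 and 1202 counts and miR-15a-5p at 769 and 501. The miR-29 seed took 2.20% ± 0.463, shared about equally by miR-29a-3p and miR-29b-3p, while miR-29c-3p had 105 and 67 counts. The ratio of miR-29a-3p to miR-29b-3p was 1.36 in replicate 1 and 0.811 in replicate 2, so the leader differed. The seeds of miR-27 (1.95% ± 0.475) and miR-23 (1.51% ± 0.215) each joined a strand of the cluster on chromosome 19 with its paralog on chromosome 9. miR-27a-3p exceeded miR-27b-3p 3.10 and 2.04 times, and miR-23a-3p exceeded miR-23b-3p 2.06 and 1.84 times, so the chromosome 19 copy led in each library. The paralogs of each pair are close in sequence, so their split is uncertain too.

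The miR-30 seed took 1.71% ± 0.104 through miR-30c-5p, miR-30e-5p (1735 and 1617 counts) and miR-30a-5p (663 and 782). miR-30b-5p (1499 and 1506 counts) and miR-30d-5p (1242 and 1724) had no sequence in the reference and were not assigned to a seed. The share and place of the miR-30 seed therefore leave them out. Grouped by name, with miR-30b, miR-30d and the 3p strands included, the miR-30 list reached 3.04% ± 0.274. The miR-99/100 seed took 1.55% ± 0.249, and miR-100-5p gave 88.8% of it. miR-99b-5p had 527 and 335 counts, whereas miR-99a-5p had only 5 and 4, giving a ratio of miR-100-5p to miR-99a-5p of 761 and 767.

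**Figure D2:**
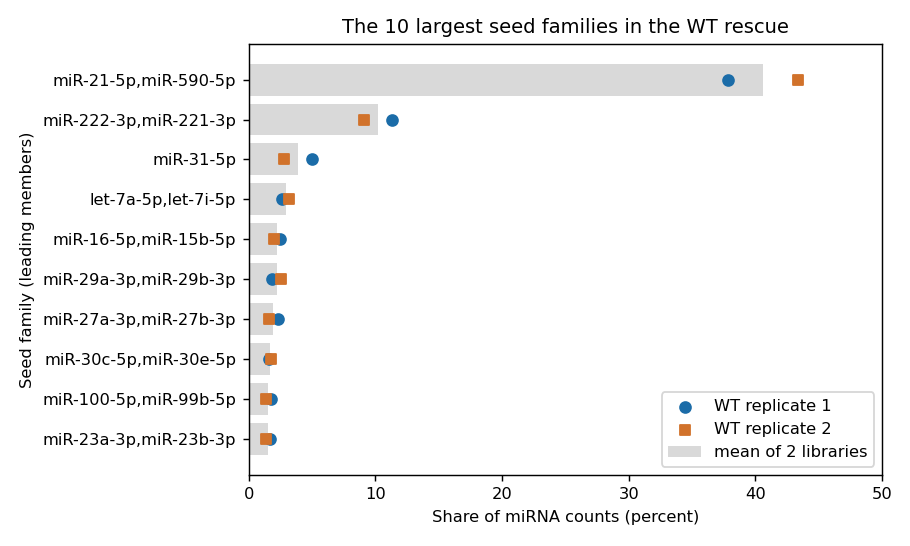
Share of miRNA counts (percent) of the 10 largest seed families, named by their 2 leading members, with a grey bar for the mean of the 2 WT libraries, a circle for replicate 1 and a square for replicate 2. The miR-21-5p family at 40.6% and the miR-222-3p family at 10.2% exceed the other 8, which lie between 1.51% and 3.87%. Strands with no sequence in the reference, such as miR-30b-5p and miR-30d-5p, are in no family.

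Lists of miRNAs by name gave the share of better-known groups, both strands included. Any list held 219 entries and 40.6% ± 2.85 of counts, with no list holding miR-21. miR-221 with miR-222 took 11.2% ± 1.25. The miR-23/27/24 clusters took 4.77% ± 1.09. The miR-17-92 cluster and its paralogs, oncogenic clusters under MYC control, took 3.54% ± 0.477 with 23 of 23 listed entries detected. The let-7 list took 3.16% ± 0.456 with 19 of 19, and the miR-10/99/100 list 2.61% ± 0.526 with 9 of 9.

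The miR-34 and miR-200 lists and several others were lower. The miR-34 list took 0.472% ± 0.0560, most of it miR-34a-5p with 1186 and 988 counts. The miR-200 list, repressors of ZEB1 and ZEB2, took 0.280% ± 0.00940. Within it miR-200a-3p, miR-200b-3p and miR-429, encoded together on chromosome 1, had 639 and 613 counts in all, and miR-200c-3p with miR-141-3p, the other cluster, had 19 and 19, a ratio of 33.6 and 32.3. The miR-181 list took 0.727% ± 0.0723, the cluster of miR-183, miR-96 and miR-182 1.08% ± 0.143, miR-103 with miR-107 0.456% ± 0.229 (0.619% in replicate 1 and 0.294% in replicate 2) and the list of miR-130, miR-301 and miR-454 0.254% ± 0.00171.

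Of the hairpins that bypass part of the usual route, miR-320a was abundant (mean 6239 CPM), while mirtrons and miR-451a took small shares. The miR-320 list, led by miR-320a, whose hairpin begins at a transcription start site and needs no cut by DROSHA, took 0.646% ± 0.195. Mirtrons, hairpins made by splicing, took 0.0474% ± 0.00616. miR-451a, whose precursor is cut by Argonaute and not by DICER, had 44 and 32 counts. Entries that overlap snoRNA, tRNA or rRNA took 1.13% ± 0.115, most of it miR-1260b. Whether these counts hold fragments of the longer RNA was not tested.

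Markers of cell types were read as a check of the label. All 5 epithelial markers were detected in both libraries, summing to 2624 and 2556 CPM, of which miR-200c-3p and miR-141-3p gave little (10 and 9 counts, and 9 and 10 counts). Of the 3 intestinal markers, miR-192-5p (41 and 21 counts) and miR-194-5p (43 and 26 counts) were detected in both, and miR-215-5p had 2 and 0. Their sum was 343 and 190 CPM. Of markers of other cells, the 7 of fibroblasts, smooth muscle and endothelium summed to 1611 and 1282 CPM, mainly miR-145-5p, miR-126-3p and miR-126-5p, with miR-143-3p at 9 and 4 counts. The 5 of neurons summed to 650 and 574 CPM, nearly all miR-9-5p at 141 and 130 counts, with miR-124-3p and miR-129-5p at 0. The 4 leukocyte markers listed summed to 443 and 295 CPM, mainly miR-142-3p at 93 and 65 counts, and the 4 erythroid markers to 271 and 235 CPM, with miR-144-5p at 0. Only 2 of 6 muscle, 1 of 2 hepatocyte and 3 of 7 pluripotent markers were listed. Muscle summed to 67.8 and 12.1 CPM, all of it miR-499a-5p at 17 and 3 counts, with miR-133a-3p at 0. Hepatocytes (3.99 and 8.09 CPM) and pluripotent cells (0 and 8.09 CPM, miR-372-3p at 0) were below the limit of 3 counts in each library. Markers that were not listed have no value, so these sums do not rank those cells against the others. In RNA of whole cultures, few cells with much of an miRNA and many cells with little cannot be told apart.

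The 5p strands held more counts than the 3p strands, and miR-21-5p accounted for most of the gap. They took 67.9% of replicate 1 and 69.9% of replicate 2 (68.9% ± 1.37), 3p strands took 27.5% and 24.9% (26.2% ± 1.81), and entries with no arm in the name took 4.89% ± 0.432. With miR-21-5p left out, 5p strands held 47.8% ± 1.11 and 3p strands 44.0% ± 0.158.

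Within single hairpins, the 5p strand led more often than the 3p strand. Of 396 hairpin names with both arms listed, 151 had a mean of at least 20 counts and were tested, arm against arm, by an exact binomial test within each library (two-sided, Benjamini-Hochberg, 0.05). A hairpin was called when both libraries passed on the same side. The 5p strand led in 85 (56.3%), the 3p strand in 43 (28.5%) and neither in 23 (15.2%). Dominance was mostly strong: 73 hairpins (48.3%) had at least 4 times as many 5p counts in both libraries and 32 (21.2%) at least 4 times as many 3p counts. The median 5p share was 93.5% in the hairpins led by 5p and 7.75% in those led by 3p. Names that give a locus number, such as those of miR-16, miR-24, miR-26a, miR-29b, miR-30c and miR-92a, have a strand shared by several loci and do not enter by exact name. With such loci summed the counts were 93, 48 and 24. Some names of several loci do enter. The names let-7a and miR-181a are examples, although their arms come from unlike numbers of loci. For let-7a the 5p strand has 3 loci and the 3p strand 2, and for miR-181a 2 and 1. The 5p strands of miR-181b and miR-196a, which also enter, have 2 loci each.

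Among the 8 most abundant hairpins led by 5p, miR-100 and miR-10a left almost nothing of the other strand. miR-100 had 3804 and 3066 counts of 5p against 7 and 18 of 3p, a 5p share of 99.8% and 99.4%. miR-10a had a 5p share of 98.5% and 97.9%, and miR-21 97.9% and 95.8%. let-7a (94.0% and 92.3%), let-7i (92.1% and 93.8%) and miR-30e (91.9% and 90.9%) kept a passenger of several percent, and all 7 tested let-7 hairpins and all 4 of miR-30 were led by 5p. miR-31 kept more, with 1820 and 1702 counts of 3p and a 5p share of 87.3% and 80.0%: its 3p strand hardly differed between libraries while its 5p strand did. miR-151a was the least one-sided of the 8, at 60.8% and 67.2%.

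Among the 8 most abundant hairpins led by 3p, the 4 of the miR-23/27/24 clusters had the lowest 5p shares. miR-23a had 27 and 36 counts of 5p, a 5p share of 0.955% and 1.63%. miR-23b stood at 1.45% and 1.67%, miR-27b at 3.32% and 2.81% and miR-27a at 4.05% and 5.37%, so that all 4 tested hairpins of these clusters were led by 3p. miR-222 was near in both libraries, 5.27% and 5.47%. Its neighbour miR-221 was not: the 5p share was 8.82% in replicate 1 (exact interval 8.22 to 9.44%) and 24.7% in replicate 2 (23.7 to 25.6%), as miR-221-5p had 750 and 2033 counts while miR-221-3p had 7754 and 6204. miR-22 also differed, at 8.13% and 18.8%, and here it was the leading strand that differed, with 1762 and 583 counts against 156 and 135 of 5p.

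Some abundant hairpins kept a large share of both strands. The 5 nearest to equal arms among hairpins of at least 500 counts were miR-423 (5p share 39.4% and 38.0%), miR-151a, miR-29a (33.8% and 34.2%), miR-1307 (72.7% and 69.2%) and miR-590 (74.3% and 71.1%). Each was still called for 1 arm in both libraries. miR-29a was the steadiest, with 1352 and 1441 counts of 5p against 2647 and 2771 of 3p.

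In 5 hairpins of at least 100 counts the libraries disagreed on the leading arm. miR-330 had 120 counts of 5p and 58 of 3p in replicate 1, and 48 and 70 in replicate 2, a 5p share of 67.4% and 40.7%. The gap of 26.7 points was the widest of the 151 hairpins. miR-454 stood at 68.7% and 48.0%, miR-324 at 57.4% and 47.9%, miR-153 at 42.6% and 56.8% and miR-130b at 45.0% and 51.0%. None of the 5 passed the test in both libraries, and miR-330, miR-454 and miR-324 passed it in replicate 1 alone.

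The arm balance of most hairpins was alike in the 2 libraries. The 5p share of the 151 hairpins had a Pearson r of 0.983 between libraries, a description across hairpins that share their library and are not replicates. The median absolute difference was 2.61 points, 101 hairpins agreed within 5 points and 19 differed by more than 10. The minor strand took a median of 8.10% of a hairpin's counts in replicate 1 and 9.09% in replicate 2, and its share was higher in replicate 2 in 86 hairpins and lower in 59. In the 122 hairpins with at least 5 counts of each arm, the median log2 ratio of replicate 2 to replicate 1 was −0.09 for leading strands and 0.24 for trailing strands, and in 78 the log2 ratio of the trailing strand was the higher of the pair.

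**Figure D3:**
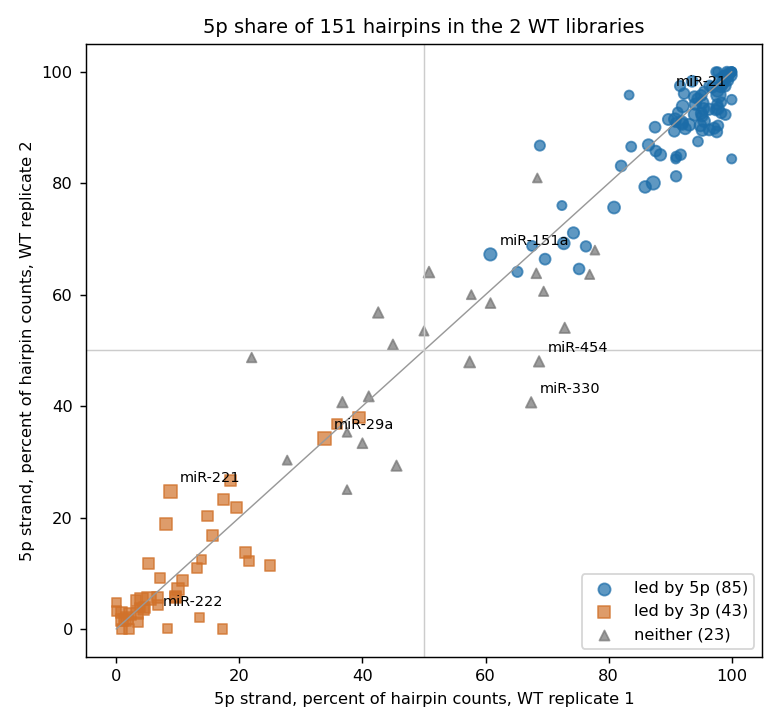
Share of 5p among a hairpin's counts (percent) in WT replicate 1 (horizontal) and replicate 2 (vertical) for 151 hairpins, with larger symbols for more counts and grey lines at 50% and at equality. The 85 hairpins led by 5p gather at the top right and the 43 led by 3p at the bottom left, while miR-330 lies at 67.4% and 40.7% and miR-221 at 8.82% and 24.7%.

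The letter at the 5′ end, which Argonaute proteins are known to read with a preference for U or A, differed between leading and trailing strands. Of 110 called hairpins with both sequences, the leading strand began with U in 67 (60.9%) and the trailing strand in 19 (17.3%). Trailing strands began with C in 48 (43.6%). Only the leading strand began with U in 56 hairpins, only the trailing strand in 8, both in 11 and neither in 35. The pattern held for each arm: 46 of 71 leading 5p strands began with U against 14 of their 3p partners, and 21 of 39 leading 3p strands against 5 of their 5p partners. The pairs printed above show it for miR-27a, miR-29a, miR-30e and miR-10a, while miR-222-3p begins with A and miR-222-5p with C. In counts, strands that begin with U took 67.5% ± 3.89 of those with a sequence and strands that begin with A 24.1% ± 3.95. Without miR-21-5p the shares were 42.5% ± 1.97 and 42.7% ± 3.36. By number, 37.7% of detected entries begin with U.

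The most abundant hairpins lay in introns, in exons and outside transcripts. MIR21 lies at chr17:59841266-59841337 (GRCh38, plus strand) within an exon of a VMP1 transcript in GENCODE 29, and has no neighbour within 10000 bases on its strand. MIR31 lies at chr9:21512115-21512185 (minus) in an intron of MIR31HG. MIR222 at chrX:45747015-45747124 and MIR221 at chrX:45746157-45746266 (minus) lie in an intron of MIR222HG. MIR100 (chr11:122152229-122152308, minus) lies in an intron of MIR100HG, MIR4521 (chr17:8186945-8187004, plus) outside annotated transcripts, and MIR10A (chr17:48579838-48579947, minus) in exons of transcripts of HOXB3, HOXB4 and AC103702.1. Among strands with a single locus, hairpins in exons held 61.2% ± 4.35 of counts, hairpins in introns 34.6% ± 4.05 and hairpins outside transcripts 4.24% ± 0.300. Without miR-21-5p the order turned, with 21.2% ± 0.202 in exons, 70.2% ± 0.177 in introns and 8.63% ± 0.379 outside. By number of detected entries introns also led, with 420 against 160 in exons and 109 outside.

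Hairpins less than 10000 bases apart on a strand formed 82 clusters with 298 of 1560 hairpins. Of the counts with a position, strands whose loci all lie in clusters took 34.8% ± 2.99, or 63.7% ± 0.435 with miR-21-5p left out. Of all miRNA counts, and over strands with a RefSeq sequence only, MIR222 with MIR221 took 10.6% ± 1.62. MIR23A, MIR27A and MIR24-2 (chr19:13836287-13836659, minus, in exons of the RNA AC020916.1) took 3.66% ± 1.01, or 2.52% ± 0.635 from strands of this locus alone. MIR29B1 and MIR29A (chr7:130876747-130877539, minus) took 3.06% ± 0.438, or 1.98% ± 0.0110 alone. The MIR17 to MIR92A1 cluster (chr13:91350605-91351391, plus) took 2.48% ± 0.404, or 1.42% ± 0.229 alone. MIR100 with MIR10526 and MIRLET7A2 (chr11:122146522-122152308, minus) took 2.25% ± 0.0516, or 1.39% ± 0.191 alone.

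Strands from one cluster were not at one level. In the miR-17-92 cluster miR-17-5p had 1418 and 762 counts and miR-20a-5p 1010 and 968. miR-18a-5p had 686 and 649, and miR-19a-3p 350 and 283. These are the 4 leading strands with a single locus, and by mean CPM miR-17-5p was the highest of them and miR-19a-3p the lowest. From miR-17-5p to miR-19a-3p the ratio was 4.05 in replicate 1 and 2.69 in replicate 2. miR-92a-3p (1895 and 1685 counts) and miR-19b-3p (1067 and 624) have 2 loci each and were left out of this range. Arms mixed as well, since 5 of the 7 tested hairpins of this cluster and its paralogs were led by 5p and 2 by 3p. miR-17-5p is close in sequence to miR-106a-5p of a paralogous cluster (79 and 30 counts), so their split is uncertain. In the chromosome 9 cluster miR-27b-3p and miR-23b-3p were nearly equal, with a ratio of 1.03 and 1.12.

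**Figure D4:**
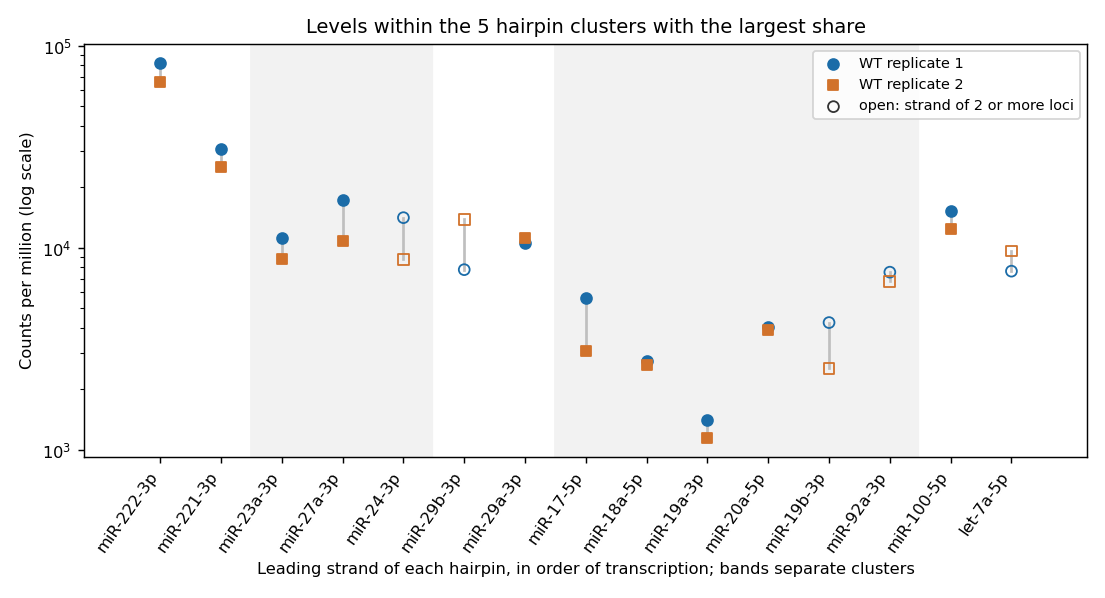
Level (CPM, log axis) of the leading strand of each hairpin in the 5 clusters with the largest share, in order of transcription, with circles for WT replicate 1, squares for replicate 2 and open symbols for strands of 2 or more loci. Strands of a cluster spread over several-fold in the MIR17 to MIR92A1 band, where miR-17-5p lies above miR-19a-3p by 4.05 and 2.69 times.

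The 2 libraries ranked miRNAs alike but differed beyond counting error in many. Over the 429 entries with a mean of at least 5 counts, log2 CPM had a Pearson r of 0.953 and a Spearman rho of 0.937 between libraries, as a description across entries. The exact binomial test called 130 of them (30.3%), 70 higher in replicate 2 (16.3%) and 60 lower (14.0%). This balance depended on the scale: it was 58 against 81 with DESeq2 size factors, 61 against 77 with total miRNA counts and 84 against 42 with spike-in counts as the library size, and the median log2 ratio was −0.04, −0.15, −0.13 and 0.08 on the TMM, DESeq2, total and spike-in scales. Calls were more frequent at higher counts, with 15 of 148 entries at a mean of 5 to 20 counts and 34 of 42 at 1000 or more, where the SD of the log2 ratio was 0.57 against 0.05 for counting alone. The biological coefficient of variation, edgeR's measure of spread beyond counting, was 0.274 on the TMM scale. With spike-in counts as library size it was 0.284 for the miRNAs and 0.268 for all 30 spike-ins. The 29 spike-ins with at least 100 counts had an SD of 0.58 in the log2 ratio, and the 139 miRNAs with at least 100 counts an SD of 0.53, 132 of them within 2-fold.

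The balance of calls is given by arm, with no test between the arms. Of 197 tested 5p entries 24 (12.2%) were higher in replicate 2 and 35 (17.8%) lower, and of 173 tested 3p entries 39 (22.5%) were higher and 17 (9.83%) lower. With spike-in counts as library size the balance of 5p entries turned to 31 against 21, and that of 3p entries stayed toward replicate 2 on all 4 scales (32 against 24 with DESeq2 factors). The coefficient of variation was 0.211 for 5p entries, 0.308 for 3p entries and 0.367 for entries with no arm.

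Calls in the lists are to be read against 16.3% higher and 14.0% lower over all 429 tested entries. Of 19 let-7 entries 11 were higher in replicate 2 and none lower, 10 or 11 on each of the 4 scales, with a median log2 ratio of 0.42. Of 10 tested miR-30 entries 4 were higher and none lower. All 3 entries of miR-103 and miR-107 were lower in replicate 2 on all 4 scales, with a median of −1.26. In the miR-23/27/24 clusters 4 of 11 and in the miR-10/99/100 list 4 of 8 were lower and none higher. With spike-in counts as library size these became 3 lower with 1 higher and 2 lower with 1 higher. None of the 7 tested miR-200 entries was called at this depth (exact binomial test, TMM scale), which does not show that they were equal. With DESeq2 factors 1 was lower, and with spike-in counts as library size 1 was higher.

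The 10 called entries of at least 100 CPM that differed most included abundant strands such as miR-221-5p and miR-22-3p, and all 10 were called in the same direction on all 4 scales. miR-4286 differed 3.19-fold (69 and 206 counts), miR-6516-3p 2.92-fold (49 and 134) and miR-221-5p 2.91-fold (750 and 2033), all higher in replicate 2. miR-22-3p was 2.81-fold lower in replicate 2 (1762 and 583), miR-6087 2.62-fold lower (94 and 33) and miR-106a-5p 2.43-fold lower (79 and 30). miR-3187-3p (15 and 40), miR-96-3p (16 and 38), miR-26b-3p (39 and 91) and let-7b-3p (37 and 86) were higher. Among the top 20, 14 entries were called in the same direction on all 4 scales. The exceptions were miR-100-5p, miR-16-5p, miR-29a-3p, miR-92a-3p, miR-26a-5p and miR-31-3p, whose log2 ratios on the TMM scale lay within 0.21 of 0.

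**Figure D5:**
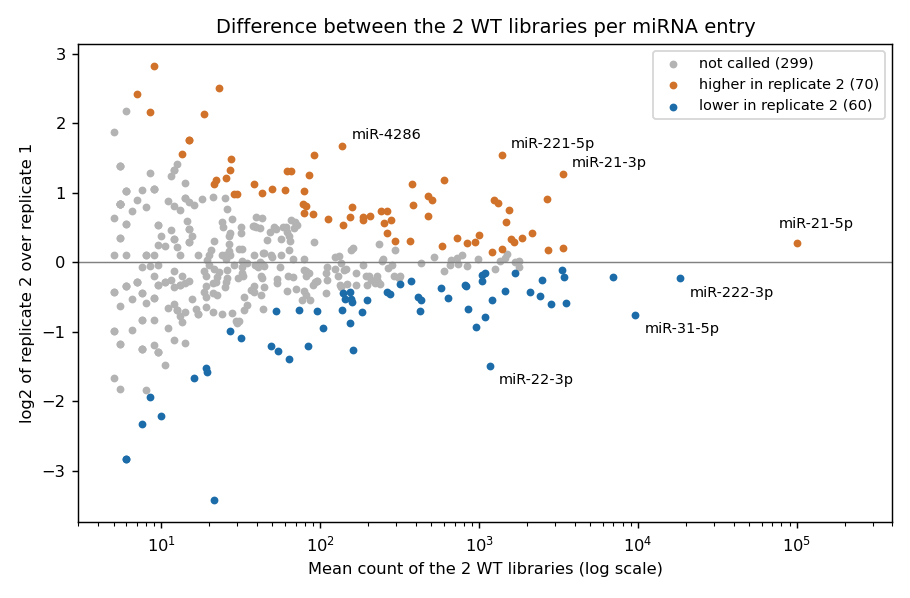
Log2 ratio of WT replicate 2 to replicate 1 on the TMM scale against the mean count (log axis) for 429 entries, with called entries in orange (70 higher in replicate 2) and blue (60 lower) and the 299 others in grey. The SD of the log2 ratio falls from 1.05 at a mean of 5 to 20 counts to 0.51 at 100 to 1000. It is 0.57 at 1000 or more, where miR-21-3p, miR-221-5p and miR-22-3p lie far from 0.

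Identical mature sequences limited what single entries can say. Among tested entries miR-365a-3p and miR-365b-3p share their sequence and had the same 108 and 83 counts, and miR-548ai and miR-570-5p had the same 7 and 17. For such pairs the locus of origin cannot be told apart. Both miR-365a and miR-365b are among the 43 hairpins led by 3p, on the same 3p counts.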

How the data were processed

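AQ-seq libraries of total RNA from HCT116 rescued with WT DICER were analysed (n = 2). The authors deposited raw counts per entry, with no normalisation, 1346 miRNA entries and 30 spike-ins per library. The submitters' processing notes name the tools bedtools, BWA and cutadapt, and mm10 besides hg38 as builds, without versions or roles. The sources used here do not say how reads that fit several entries were counted.

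Shares were computed over miRNA counts, as the mean and SD of the 2 libraries, with 95% exact intervals per library (scipy 1.17.1, Python 3.11.15). Replicates were compared by an exact binomial test with TMM factors from edgeR 4.0.16 (R 4.3.3), for entries with a mean of at least 5 counts, and arms by an exact binomial test for hairpins with at least 20. Log2 ratios used a pseudocount of 0.5. DESeq2 1.42.0 size factors, total counts and spike-in counts were alternative scales. The binomial tests were run on simulated counts with counting error only. That cannot show how often they call unchanged entries at the spread seen here. The coefficient of variation was run on simulated pairs with a known spread beyond counting. Sequences and hairpin positions came from RefSeq GRCh38.p14 and context from GENCODE 29, whose hairpin coordinates were compared by name: of 1562 hairpins, 1510 were named there and 1508 overlapped.

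Named were the 20 most abundant entries, 10 largest seed families, 8 most abundant hairpins led by each arm, 5 nearest to equal arms, all of at least 100 counts whose libraries disagreed, the 10 entries of at least 100 CPM that differed most, 5 largest clusters and leading list members; a few others serve as examples. The group, entries and lists were chosen with earlier results of these data known. No mutant was compared.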

Additional observations from a re-analysis of the deposited data

How the results depend on the processing

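No paired analysis was possible because no comparison between groups was made. With spike-ins in the denominator the share of the 10 most abundant entries was 60.0% in place of 62.5%, and that of 5p strands 66.2% in place of 68.9%. The 5p share was 72.5% with arm-less entries left out and 47.8% without miR-21-5p, where the 3p share was 44.0%. Hairpins led by 3p numbered 27 at a minimum of 100 counts (43 at 20), as fewer hairpins were tested. Hairpins led by neither arm numbered 23, against 43 at a minimum of 10 counts, 9 at 100, 46 by a 4-fold rule, and 13 to 17 with either library left out, where a single library decides the call. Of the 26 lists, 4 moved with spike-ins in the denominator (0.959 to 0.963 of their share), and miR-103 with miR-107 was 0.294% without replicate 1 in place of 0.456%. The remaining 68 alternative values of main results moved by less than the spread between libraries or, for counts, stayed within 1.5 times. For shares with either library left out this was fixed in advance, since each of 2 libraries lies less than 1 SD from their mean. Pooled shares lie between the 2 libraries, so they too had to stay within that spread. Those values are therefore no check of the shares. Agreement has no value with a library left out. With 2 libraries each SD rests on 1 difference. An entry at 0 in a library may still lie as high as about 12 CPM, and levels below this are uncertain.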
